A study of Mus musculus with 12 samples.

Results

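The genes described here are 10 smooth muscle contractile genes, Acta2, Actg2, Myh11, Tagln, Cnn1, Des, Mylk, Lmod1, Smtn and Synpo2, measured in the proximal colon of mice. They were chosen by name, as genes of the contractile apparatus whose level gives a measure of how much of the muscle layer a tissue piece held, and their Ensembl identifiers were matched to symbols in GENCODE M21. All 10 were found among the 38924 genes of the count tables, and all 10 were among the 20311 genes that passed the filter of at least 10 counts in at least 3 mice. The study sequenced total RNA from 6 female APC Min/+ mice and 6 female wild type (WT) mice, all C57BL/6 and 6 weeks old, to compare the genotypes before polyps form. APC Min/+ mice carry 1 copy of the Apc gene with a truncating mutation while both copies are intact in WT mice, and neither genotype received an agent. The methods state that the genotypes were housed in separate cages, so that genotype and cage cannot be told apart. The labels call the tissue colonic mucosa, whereas the methods describe a section of the colon placed in RNAlater and name no step that removed the muscle.

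Smooth muscle forms the inner circular and outer longitudinal muscle layers of the colon wall, the thin muscularis mucosae beneath the crypts, and the walls of blood vessels. It contracts when calcium enters the cytosol, myosin light chain kinase phosphorylates the regulatory light chain, and smooth muscle myosin pulls on actin filaments, which are anchored to dense bodies and to a desmin network. Transcription of most contractile genes depends on serum response factor, which binds a short motif named the CArG box, together with its coactivator myocardin. In a bulk sample, fewer smooth muscle cells and less of an RNA per cell cannot be told apart.

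The promoter letters of 3 of the genes are shown. Among the 7 genes with a promoter window, only Acta2 had CArG boxes close to its start. Cnn1 and Des had the largest genotype differences of the 10 genes. Each run gives the 250 bases before the start site in RefSeq (GRCm38.p6), 5′ to 3′ on the strand of the gene, with CArG boxes in capitals.
Acta2 (chr19:34255374-34255623, minus strand): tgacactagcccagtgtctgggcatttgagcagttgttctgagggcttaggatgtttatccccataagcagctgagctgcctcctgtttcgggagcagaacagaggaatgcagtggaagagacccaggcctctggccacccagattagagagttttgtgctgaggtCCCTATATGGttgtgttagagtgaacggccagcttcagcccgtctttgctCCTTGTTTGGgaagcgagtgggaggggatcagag
Cnn1 (chr9:22099003-22099252, plus strand): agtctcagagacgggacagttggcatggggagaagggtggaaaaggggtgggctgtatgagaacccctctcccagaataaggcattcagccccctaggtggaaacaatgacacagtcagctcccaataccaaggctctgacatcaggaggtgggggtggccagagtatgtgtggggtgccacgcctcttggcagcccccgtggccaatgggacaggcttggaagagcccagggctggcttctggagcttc
Des (chr1:75360042-75360291, plus strand): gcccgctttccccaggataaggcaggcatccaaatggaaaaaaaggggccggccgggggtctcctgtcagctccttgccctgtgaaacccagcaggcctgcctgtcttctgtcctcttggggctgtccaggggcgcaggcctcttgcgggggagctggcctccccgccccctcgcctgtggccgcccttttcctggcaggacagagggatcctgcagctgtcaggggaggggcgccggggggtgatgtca
RefSeq promoter windows were found for 7 of the 10 genes, and none was given for Actg2, Myh11 and Tagln. The search took a CArG box with up to 1 G or C in its A/T core, and since the motif is its own reverse complement the same letters cover both strands. The Acta2 window held 2 such boxes, CCCTATATGG and CCTTGTTTGG, beginning 84 and 34 bases before the RefSeq start site, and 1 of the 7 windows held any. Among the 32851 windows of all genes, 8.59% held at least 1 and 0.67% held 2 or more. The stricter form of the motif, with no G or C in the core, was in none of the 7 windows and in 1.47% of all windows. The RefSeq start site of Acta2 lies 217 bases inside the gene as GENCODE M21 annotates it, and those of Mylk and Smtn lie 39740 and 1320 bases from the annotated gene start. The distances and the count of windows with a box therefore hold for the RefSeq start sites only.

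The depth was between 50313805 and 197914821 counts on genes per mouse, at which 3 counts correspond to no more than 0.0596 CPM (counts scaled to the library total). Counting error is therefore small against the levels of the 10 genes, though not against those of markers near that floor. No pair of libraries agreed within sampling noise. Epithelial cells were well represented, with Epcam between 1239 and 1624 CPM. APC Min/+ mice M10_2 and M13_1 carried the distal colon genes Hoxb13 and Tgm3 at up to 378 and 2291 CPM, against no more than 0.384 and 2.93 CPM in the WT mice, and the differences of the 10 genes and the medians of the lists are therefore also given without these 2 mice. Among the striated muscle markers, the fast myosin Myh4 and myoglobin (Mb) were at no more than 0.0186 and 0.187 CPM in any mouse, while the creatine kinase Ckm was at 9.70 to 34.3 CPM and the skeletal actin Acta1 at 1.09 to 9.14 CPM. The names of the mice have a suffix, which holds a 1, a 2 (followed by a or b in M18_2a and M18_2b) or only a letter (M2_A and M18_b). The methods state that the mice arrived in several shipments, and the labels give neither the shipment of a mouse nor a sequencing batch nor a meaning for the suffix.

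The 10 genes took between 0.570% and 0.809% of all counts in the APC Min/+ mice, with a median of 0.748%, and between 0.553% and 0.777% in the WT mice, with a median of 0.611%. The ranges overlapped over most of their width. Levels of different genes were compared per length, as RPKM, the counts scaled to the exon length and the total count. By mean RPKM over the 12 mice the order was Acta2 at 669, Tagln at 570, Actg2 at 414, Myh11 at 292, Cnn1 at 181, Des at 131, Mylk at 74.8, Smtn at 35.2, Synpo2 at 22.1 and Lmod1 at 13.6. The order within mice was steady between most neighbours. Tagln exceeded Actg2, Cnn1 exceeded Des, Des exceeded Mylk, Mylk exceeded Smtn and Smtn exceeded Synpo2 in 12 of 12 mice. Acta2 exceeded Tagln in 10 of 12 mice, with a mean log2 ratio of 0.25 ± 0.20 (SD, n = 12). Actg2 exceeded Myh11, Myh11 exceeded Cnn1 and Synpo2 exceeded Lmod1 in 11 of 12 mice each. The mean log2 ratios were 0.48 ± 0.37, 0.72 ± 0.41 and 0.74 ± 0.39, respectively (SD, n = 12). The order of these neighbours, and that of Acta2 and Tagln, thus did not hold in every mouse.

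**Figure D1:**
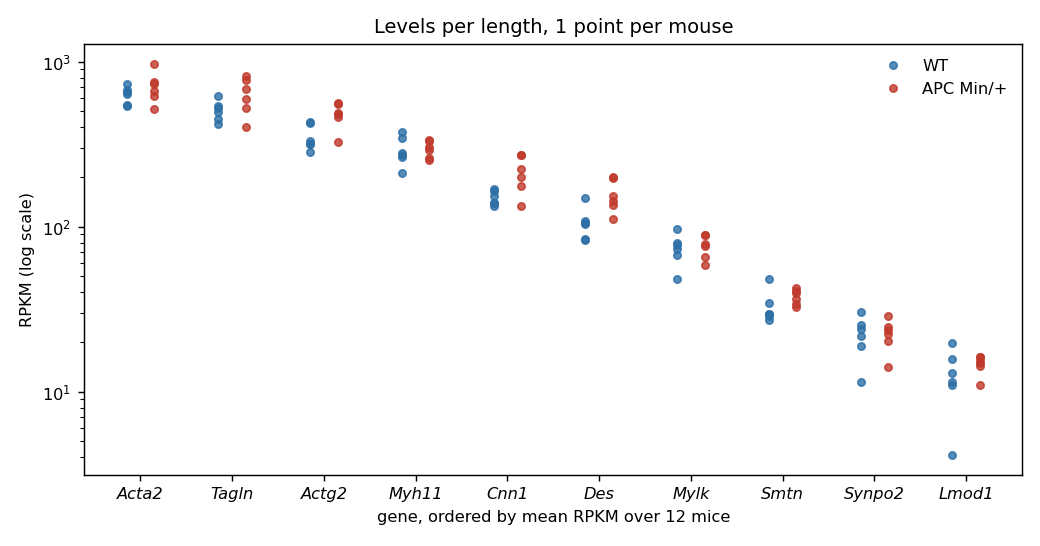
RPKM on a log axis for the 10 contractile genes, ordered by their mean over the 12 mice, with 1 point per mouse and the genotypes side by side (WT blue, APC Min/+ red). Acta2, at a mean of 669 RPKM, lay highest and Lmod1, at 13.6, lowest, and the single low Lmod1 point is WT mouse M17_1.

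The quasi-likelihood test of edgeR was applied to all 20311 genes, and a differentially expressed gene (DEG) was one that differed at least 2-fold with a Benjamini-Hochberg FDR under 0.05. The 10 genes gave 0 DEGs, against a background of 0% of all genes higher and 0% lower in APC Min/+ mice. The lowest FDR of any gene was 0.908, and the FDRs of the 10 genes lay between 0.908 and 0.997. DESeq2 and edgeR's likelihood ratio test called 27 and 15 of all genes, respectively, and 0 of these 10. At an unadjusted p under 0.05, 3 of the 10 genes (Actg2, Cnn1 and Des) were higher in APC Min/+ mice, against 3.46% of all genes, and 0 were lower, against 1.81%. The log2 fold change was above 0 in 8 of the 10 genes and in 48.4% of all genes. Its median was 0.17 over the 10 genes and -0.0077 over all genes tested. None of the 10 genes had 6 APC Min/+ values that lay apart from the 6 WT values, against 0.0443% of all genes wholly higher and 0.0739% wholly lower.

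The precision of these comparisons can be read from their intervals. The 95% interval of the fold change lay within 2-fold either way for 10 of the 10 genes, and for 76.5% of all genes. The bound farthest from 0 was the upper one of Des, at 0.86 on the log2 scale. Without mice M10_2 and M13_1, which left 4 APC Min/+ and 6 WT mice, the intervals of all 10 genes again lay within 2-fold, and the farthest bound was 0.85, for Lmod1. In that comparison 0 of 19978 genes were DEGs, and 2 of the 10 genes, Actg2 and Des, were higher at an unadjusted p under 0.05, against 0.531% of all genes. The median log2 fold change of the 10 genes was then 0.19.

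**Figure D2:**
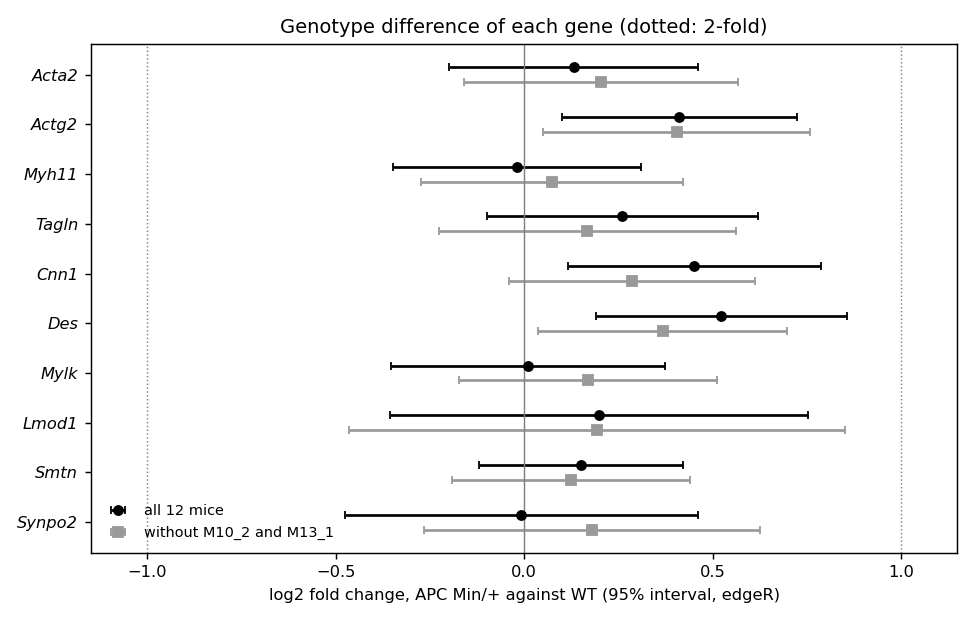
Log2 fold change of each gene, APC Min/+ against WT, with its 95% interval from edgeR, for all 12 mice (black) and without M10_2 and M13_1 (grey); dotted lines mark 2-fold. The intervals of Actg2, Cnn1 and Des lie above 0 with all mice, Cnn1 reaches below 0 without the 2 mice, and no interval crosses a dotted line.

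The filament proteins come first. Acta2 (ENSMUSG00000035783.8, chr19:34241090-34255590, minus strand) encodes the smooth muscle alpha actin of vessels, gut muscle and myofibroblasts. Its level in APC Min/+ mice ran from 897 CPM through a median of 1193 to 1749 CPM, and in WT mice from 954 through 1184 to 1225 CPM. The medians lay close together while the APC Min/+ mice spread wider, and 2 of them exceeded every WT mouse. Between genotypes the log2 fold change of 0.13 (standard error, SE, 0.154, FDR = 0.911 in edgeR) was smaller than its standard error, and without M2_A, the highest mouse, it was 0.028. It was 0.20 without M10_2 and M13_1.

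Actg2 (ENSMUSG00000059430.8, chr6:83512905-83536265, minus strand) encodes the gamma actin typical of visceral smooth muscle. APC Min/+ mice ranged from 493 CPM through a median of 782 to 872 CPM, and WT mice from 488 through 513 to 667 CPM. All APC Min/+ mice but M18_2b exceeded the highest WT mouse, and M18_2b lay at the bottom of the WT range. Its log2 fold change was 0.41 (SE 0.145, 95% interval 0.10 to 0.72, unadjusted p = 0.0136, FDR = 0.908 in edgeR), and it was 0.41 without M10_2 and M13_1. As a share of the Acta2 level in the same mouse, both in RPKM, Actg2 stood at 56.9% to 77.4% in APC Min/+ mice and 49.0% to 62.3% in WT mice, ranges that overlapped. The actins are close in sequence, yet 0% of the 100 base words of the Acta2 and Actg2 transcripts occurred in another actin transcript. This search took exact matches only, and alignment with mismatches was not checked.

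Myh11 (ENSMUSG00000018830.8, chr16:14194535-14291372, minus strand) encodes the smooth muscle myosin heavy chain, the motor of the thick filament. It had the highest CPM of the 10 genes, from 1590 through a median of 1884 to 2299 CPM in APC Min/+ mice and from 1423 through 1884 to 2401 CPM in WT mice. The medians were alike and the WT range enclosed the APC Min/+ range. Its log2 fold change was -0.019 (SE 0.152, FDR = 0.985 in edgeR), with an interval from -0.35 to 0.31. It was 0.074 without M10_2 and M13_1.

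Tagln and Cnn1 encode transgelin (SM22 alpha) and calponin, related proteins that bind actin filaments. Tagln (ENSMUSG00000032085.4, chr9:45929619-45936058, minus strand) ranged from 618 CPM through a median of 1005 to 1238 CPM in APC Min/+ mice and from 653 through 804 to 999.9 CPM in WT mice. Its highest and its lowest mouse were both APC Min/+ (M2_A and M18_2b). Between genotypes the log2 fold change was 0.26 (SE 0.166, FDR = 0.908 in edgeR) and its interval included 0. This value was 0.17 without M10_2 and M13_1. Pcsk7, a proprotein convertase gene on the other strand that overlaps Tagln, was counted at up to 138 CPM, and the strand setting of the counting was not given in the sources used here.

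Cnn1 (ENSMUSG00000001349.4, chr9:22099216-22109630, plus strand) ranged from 306 CPM through a median of 514 to 612 CPM in APC Min/+ mice and from 312 through 364 to 409.8 CPM in WT mice. M18_2b was the lowest of all mice. The other 5 APC Min/+ mice lay above every WT mouse, as they did for Actg2. The highest Cnn1 values were in M10_2 and M13_1. In APC Min/+ mice Cnn1 had a log2 fold change of 0.45 (SE 0.156, 95% interval 0.12 to 0.79, unadjusted p = 0.0122, FDR = 0.908 in edgeR). Without M10_2 and M13_1 it was 0.29 and its interval, from -0.041 to 0.61, included 0 (unadjusted p = 0.0811 in edgeR).

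Des (ENSMUSG00000026208.9, chr1:75360329-75368579, plus strand) encodes desmin, the muscle intermediate filament that ties dense bodies together. It ranged from 407.5 CPM through a median of 565 to 709 CPM in APC Min/+ mice and from 313 through 403 to 523 CPM in WT mice. All APC Min/+ mice lay above the WT median and 5 of 6 above the highest WT mouse, M17_2. The log2 fold change of 0.52 (SE 0.155, 95% interval 0.19 to 0.86, unadjusted p = 0.0048, FDR = 0.908 in edgeR) was that of the largest size among the 10 genes. Without M10_2 and M13_1, its highest mice, it was 0.37 (unadjusted p = 0.0320 in edgeR).

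**Figure D3:**
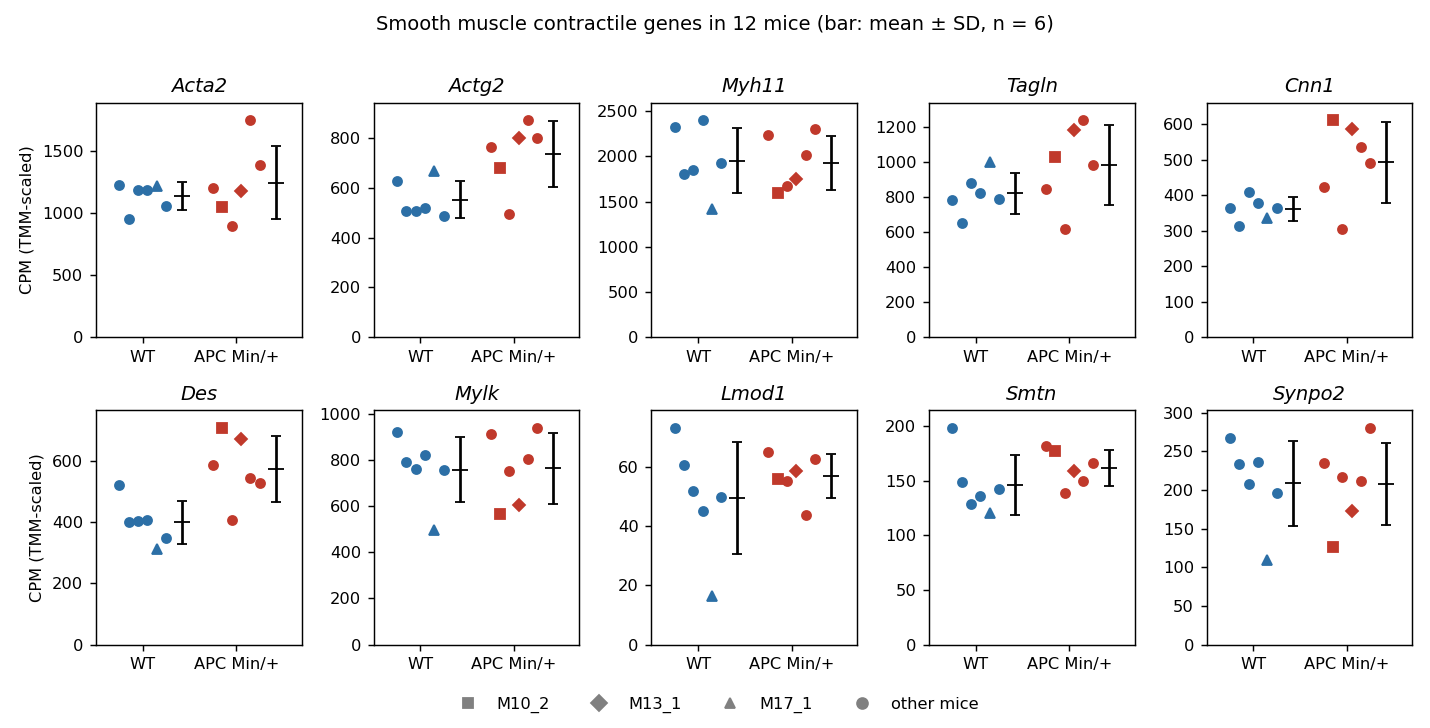
CPM (TMM-scaled) of the 10 genes in the 12 mice, 1 panel per gene with axes from 0; points are mice, bars the mean ± SD of 6 mice, and M10_2, M13_1 and M17_1 have their own symbols. In the panels of Actg2, Cnn1 and Des 5 of 6 APC Min/+ mice lie above the WT mice, and in the panel of Lmod1 WT mouse M17_1 lies at 16.5 CPM, below all others.

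Mylk (ENSMUSG00000022836.10, chr16:34745210-35002420, plus strand) encodes myosin light chain kinase, the enzyme that switches contraction on. APC Min/+ mice ranged from 566 CPM through a median of 780 to 941 CPM, and WT mice from 497 through 775 to 923 CPM. The ranges covered each other and the log2 fold change was 0.011 (SE 0.168, FDR = 0.993 in edgeR). The lowest mice were WT mouse M17_1 and the APC Min/+ mice M10_2 and M13_1, and without the latter 2 the log2 fold change was 0.17. The same gene encodes telokin, a short inhibitory protein of smooth muscle, and counts per gene do not separate the transcripts.

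Lmod1 (ENSMUSG00000048096.7, chr1:135324807-135368065, plus strand) encodes leiomodin 1, which starts new actin filaments. It ranged from 43.8 CPM through a median of 57.4 to 65.1 CPM in APC Min/+ mice and from 16.5 through 51.0 to 73.3 CPM in WT mice. The WT range enclosed the APC Min/+ range at both ends, and M17_1 stood apart below. The highest mouse had 4.45 times the level of the lowest, and 1.67 times with M17_1 left out. Its log2 fold change was 0.20 (SE 0.258, FDR = 0.911 in edgeR), 0.016 without M17_1 and 0.19 without M10_2 and M13_1.

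Smtn (ENSMUSG00000020439.11, chr11:3517523-3540612, minus strand) encodes smoothelin, a protein of differentiated contractile cells. It ranged from 138 CPM through a median of 162 to 182 CPM in APC Min/+ mice and from 121 through 139 to 198 CPM in WT mice, among which M17_2 was the highest. The log2 fold change was 0.15 (SE 0.126, FDR = 0.910 in edgeR), and 0.12 without M10_2 and M13_1. Gm11946, a transcript on the other strand within the span of Smtn, was counted at up to 83.5 CPM. Synpo2 (ENSMUSG00000050315.7, chr3:123076519-123236149, minus strand) encodes synaptopodin 2 (myopodin), which binds actin and alpha actinin. Its range was 126 CPM through a median of 215 to 281 CPM in APC Min/+ mice and 109 through 221 to 268 CPM in WT mice. The medians were close, and the log2 fold change was -0.0072 (SE 0.217, FDR = 0.997 in edgeR), with an interval from -0.48 to 0.46. This value was 0.18 without M10_2 and M13_1.

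Within each mouse the 10 genes did not move as 1 block. Mice M20_1 and M17_1 mark the extremes of the mean log2 difference from the gene averages, at 0.26 and -0.44, and M20_1 (APC Min/+) was above average in 10 of the 10 genes. WT mouse M17_1 was the lowest mouse for 6 of the 10 genes (Myh11, Des, Mylk, Lmod1, Smtn and Synpo2), while its Tagln, Actg2 and Acta2 levels were above average. APC Min/+ mouse M18_2b was the lowest for Acta2, Tagln and Cnn1. M10_2 had the highest Cnn1 and Des, at 0.56 and 0.59 above the gene average on the log2 scale, together with Synpo2 and Mylk at -0.67 and -0.40.

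A split along transcript length was seen after the values were known and is given without a test. The 5 genes with the shortest exon length in the count tables (Actg2, Tagln, Acta2, Cnn1 and Des, 1562 to 3754 bases) had log2 fold changes of 0.13 to 0.52. The 5 with the longest (Lmod1, Smtn, Myh11, Synpo2 and Mylk, 3948 to 10159 bases) had log2 fold changes of -0.019 to 0.20. Without M10_2 and M13_1 the ranges were 0.17 to 0.41 and 0.074 to 0.19. Over all tested genes the median log2 fold change was -0.11 in the shortest quintile, of 36 to 1257 bases, which held none of the 10 genes. In the longer quintiles, from 1257 bases up, the medians ran from -0.023 in the shortest of them to 0.031 in the longest. M17_1 was lowest for 5 of the 5 long genes and for 1 of the 5 short ones. In that mouse the mean log2 difference from the gene averages was -0.76 over the long genes and -0.12 over the short ones. In M10_2 the same means were -0.19 and 0.26. Across the 12 mice, the Spearman correlation between the genes had a median of 0.67 over the 10 pairs of short genes, 0.54 over the 10 pairs of long genes and 0.11 over the 25 pairs of a short and a long gene. The ranges overlapped, at 0.13 to 0.83, 0.31 to 0.94 and -0.46 to 0.74, respectively. Some long pairs leaned on M17_1. Without it, Pearson's r of Lmod1 fell from 0.67 to 0.26 with Mylk and from 0.70 to 0.28 with Synpo2. It was 0.94 against 0.97 for Mylk with Synpo2, and 0.75 against 0.71 for Lmod1 with Smtn. These pairs share the 12 libraries and are a description.

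Base composition and length also moved with the libraries. In M17_1 the genes in the top quintile of GC content lay at a median of -0.45 (log2) from their averages and the longest quintile at -0.17, while in M2_A, which had the highest Acta2, Actg2 and Tagln, these medians were -0.25 and -0.21. The transcripts of the 10 genes had a GC content of 47.8% to 60.1%. The part of composition and length in the values of the 10 genes was not tested.

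**Figure D4:**
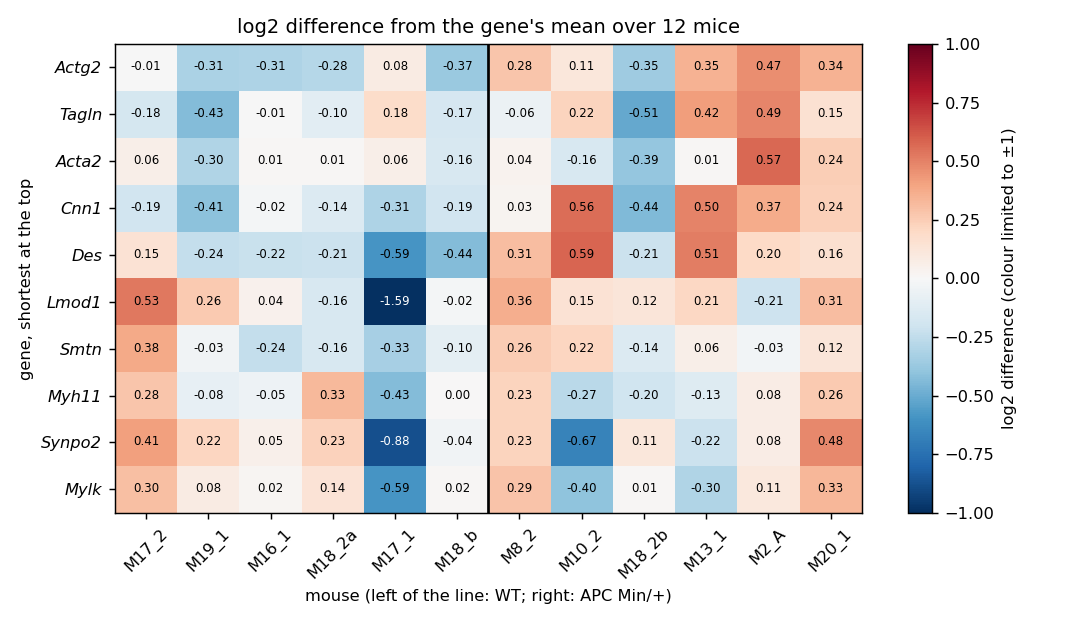
Log2 difference of each gene from its own mean over the 12 mice, with genes ordered from the shortest (top) to the longest and mice grouped by genotype (WT left of the line); colour is limited to ±1 and the number is printed in each cell. M17_1 is low in the lower rows down to -1.59 for Lmod1, and M10_2 is high for Cnn1 and Des and low for Synpo2 and Mylk.

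The genotype differences were also compared among mice that share the number in the suffix. Among the mice with a 1 (2 APC Min/+ and 3 WT, M13_1 and M17_1 included), the differences ran from 0.18 for Mylk to 0.69 for Lmod1 on the log2 scale. For Lmod1, M17_1 lay at 16.5 CPM, below all other mice. Among those with a 2 (3 APC Min/+ and 2 WT, M10_2, M18_2b and M18_2a included), the differences ran from -0.43 for Synpo2 to 0.26 for Des, with 0.16 for Actg2 and 0.21 for Cnn1. The mice with only a letter were 1 per genotype. With the suffix as a covariate in edgeR, Actg2, Cnn1 and Des were again the members with an unadjusted p under 0.05. Over all genes, 849 of 20311 were under 0.05 in either direction.

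The other genes of the contractile machinery were taken from lists chosen by function. Of 14 thin and thick filament genes tested, 0 were DEGs, 1 was higher at an unadjusted p under 0.05 and 0 were lower, with a median log2 fold change of 0.13. That gene was Tpm2, a tropomyosin that lies along actin filaments, at 398 to 627 CPM in APC Min/+ and 410.5 to 529 CPM in WT mice (log2 fold change 0.28, FDR = 0.908 in edgeR). Its log2 fold change was 0.27 without M10_2 and M13_1 (unadjusted p = 0.0659 in edgeR). Myl6 and Actb, a myosin light chain and the cytoplasmic beta actin that most cells make, were the genes of this list with the highest RPKM and had log2 fold changes of -0.066 and 0.047. Lmod2, the leiomodin of striated muscle, was not tested and had 0 counts in all mice, which allows a level of up to 0.0596 CPM.

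Of 24 attachment and cytoskeleton genes, 0 were DEGs, 3 were higher at an unadjusted p under 0.05 and 0 were lower, and the median was 0.19. Synm, an intermediate filament protein that pairs with desmin, was at 109 to 259 CPM in APC Min/+ mice and 48.0 to 151 CPM in WT mice (log2 fold change 0.63, FDR = 0.908 in edgeR). Csrp1, a LIM domain protein of actin bundles, had a log2 fold change of 0.44, and Itga8, an integrin of smooth muscle and mesenchyme, one of 0.47. Flna, the actin crosslinker filamin A, had 0.16. Without M10_2 and M13_1, 0 of the 24 genes had an unadjusted p under 0.05 in either direction.

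Of 13 contraction switch genes, 0 had an unadjusted p under 0.05 in either direction, and the median was 0.0067, with single genes between -0.20 and 0.23. Rhoa, a small GTPase that raises the calcium sensitivity of contraction, had a log2 fold change of 0.13. Among 14 calcium and membrane genes, with a median of -0.032, Kcnmb1, the beta subunit of the BK potassium channel, was the 1 gene with an unadjusted p under 0.05 (log2 fold change 0.30, FDR = 0.908 in edgeR). Atp2a2, the calcium pump of the sarcoplasmic reticulum, had 0.095 and Rgs2, a brake on G protein signalling, -0.37. Of 10 transcription factor genes tested, 0 had an unadjusted p under 0.05. All 10 had a log2 fold change above 0, against 48.4% of all genes, with a median of 0.17. Srf, which encodes serum response factor, had 0.17 and Tcf21 0.23. Myocd, the coactivator gene, was at 2.36 to 11.2 CPM over the 12 mice with a log2 fold change of 0.074. Barx1 and Six2 did not pass the filter on low counts.

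**Figure D5:**
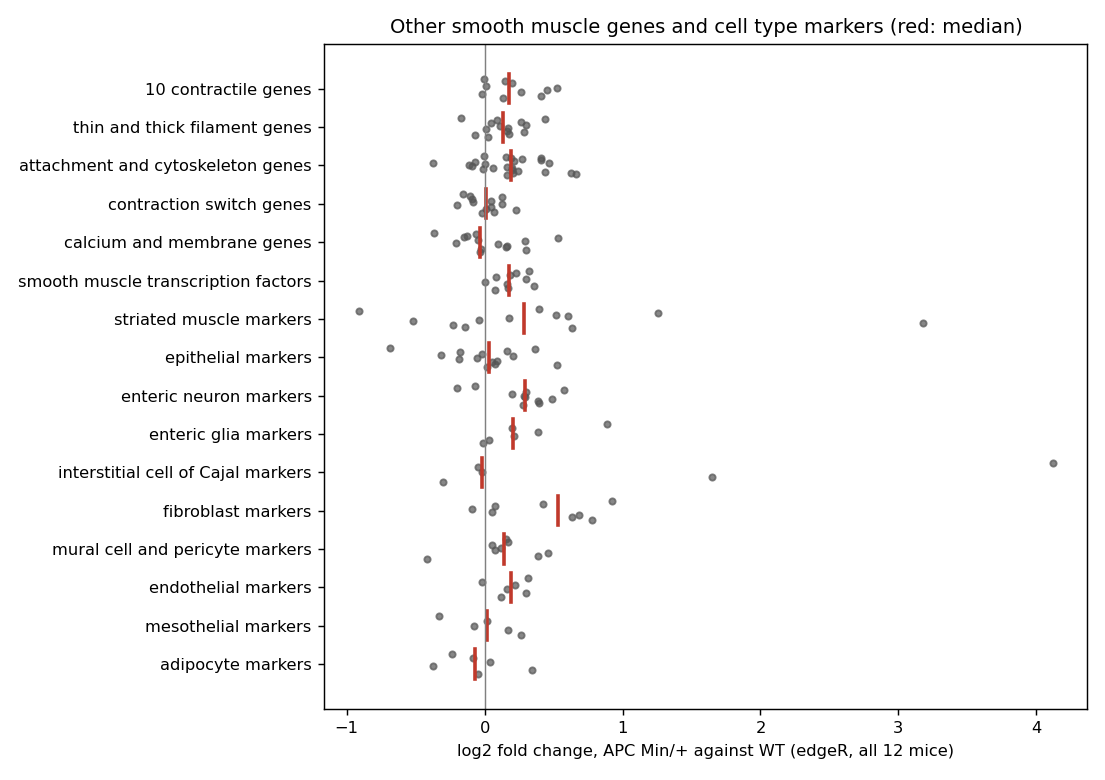
Log2 fold changes, APC Min/+ against WT, from edgeR over all 12 mice for the 10 genes, 5 lists of other smooth muscle genes and 10 lists of cell type markers; points are tested genes and red lines are list medians. The medians of the smooth muscle lists lie between -0.032 and 0.19, and the points beyond 1 are Myh2, Tnnt2, Ano1 and Thbs4.

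Markers of other cells in the colon wall were read in the same way, and each list held 0 DEGs and 0 genes lower at an unadjusted p under 0.05. The 14 epithelial markers had a median log2 fold change of 0.034, with 0.075 for Krt8 and -0.69 for Muc2. Their summed level was 14282 to 23030 CPM in APC Min/+ mice and 18464 to 25101 CPM in WT mice. Muc2 was lowest in M10_2 and M13_1, at 1714 and 1268 CPM. Neurons and glia of the myenteric plexus lie between the muscle layers. The 11 neuron markers had a median of 0.29 (summed level 132 to 195 CPM against 74.7 to 189 CPM) and the 6 glia markers one of 0.20 (271 to 482 CPM against 179 to 478 CPM), with 0 genes of either list at an unadjusted p under 0.05. By RPKM the leading neuron markers were Uchl1 and Vip, with log2 fold changes of 0.39 and -0.070. The leading glia markers were S100b and Erbb3, with 0.035 and 0.20. Erbb3 made up most of the glia sum in every mouse. The 8 fibroblast markers had a median of 0.53, and their summed level was 2112 to 3221 CPM in APC Min/+ mice and 1176 to 2439 CPM in WT mice. Col3a1 and Fbln1, a fibrillar collagen and a matrix glycoprotein, had an unadjusted p under 0.05, with log2 fold changes of 0.68 and 0.92, while Dcn (decorin) had -0.089. The fibroblast median was 0.32 without M10_2 and M13_1, and 0 of its genes had an unadjusted p under 0.05. In M17_1, the mouse with the lowest levels of 6 contractile genes, the fibroblast and glia sums were the lowest of the 12 mice. Single markers of these lists did not all follow. Erbb3 made up 157 of the 179 CPM of the glia sum in M17_1, whereas S100b was lowest in M13_1, at 1.97 CPM. Col3a1 and Fbln1 were lowest in M17_1, at 259 and 10.6 CPM. Dcn, at 561 CPM in M17_1, was lowest in M8_2, at 368 CPM. The part of these cells in the values of the 10 genes was not tested.

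Interstitial cells of Cajal pace the muscle. Their 5 markers had a median of -0.017, and 2 of the 5 had a log2 fold change above 0, against 48.4% of all genes. Ano1 and Thbs4 were at 363 and 426 CPM in M10_2 and at 356 and 394 CPM in M13_1. In the other APC Min/+ mice they were at no more than 58.0 and 11.4 CPM, and in WT mice at no more than 61.6 and 9.91 CPM. Without M10_2 and M13_1 their log2 fold changes were -0.023 and 0.11. The 8 mural cell and pericyte markers had a median of 0.14, and Rgs5 and Mustn1, with the highest RPKM among them, had -0.42 and 0.16. Medians were 0.19 for the 6 endothelial, 0.016 for the 5 mesothelial and -0.068 for the 6 adipocyte markers, with 0 genes at an unadjusted p under 0.05. Their leading genes by RPKM were Cdh5 (0.30) and Pecam1 (0.12), Upk3b (0.26) and Upk1b (-0.33), and Pck1 (-0.24) and Fabp4 (-0.086), with log2 fold changes in parentheses. Of 12 striated muscle markers tested, Myh2 and Tnnt2 had an unadjusted p under 0.05, at no more than 2.09 and 14.6 CPM in any mouse. The median was 0.29, with Acta1 at 0.64 and Ckm at -0.23. Myh2 and Tnnt2 were highest, and Ckm lowest, in M10_2 and M13_1. The 4 distal colon genes all had an unadjusted p under 0.05, with a median of 8.35 (0.81 without M10_2 and M13_1).

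The other list medians without M10_2 and M13_1 were as follows. Among the smooth muscle lists they were 0.14 for thin and thick filament genes, 0.16 for attachment and cytoskeleton genes, 0.018 for contraction switch genes, 0.011 for calcium and membrane genes, and 0.14 for transcription factor genes. The calcium and membrane list thus moved from below to above 0. Among the marker lists they were 0.11 for epithelium, 0.31 for neurons, 0.21 for glia, -0.023 for interstitial cells of Cajal, 0.16 for mural cells, 0.054 for endothelium and 0.17 for striated muscle. The mesothelial median was 0.34, and the adipocyte median was 0.43, which turned its sign. The median of all genes was -0.0064. At an unadjusted p under 0.05, 1 glia, 1 striated muscle and 1 distal colon gene were higher (Gfap, Myh2 and Hoxd13, respectively). Over all genes 0.531% were higher, and 0 genes of any list were lower.

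The genes whose pattern over the 12 mice was most like that of the 10 were ranked by Pearson's r between log2 CPM and the mean of the 10 centred genes, as a description. Clmp, a tight junction associated adhesion molecule, came first at 0.93, followed by Popdc2 at 0.92, Fbxl22 at 0.91, Reep1 at 0.89, Adamts5 at 0.89, Gm13387 at 0.89, E130114P18Rik at 0.88, Kctd8 at 0.88, Metrn at 0.87 and Cdc42ep3 at 0.87. Their log2 fold changes lay between 0.15 for Metrn and 0.53 for Kctd8. Gm13387, E130114P18Rik and Kctd8 were low, at no more than 0.0856 RPKM on average. For comparison, the 10 genes themselves had an r with their own mean of 0.39 for Tagln to 0.80 for Des. Without M10_2 and M13_1, 4 of these top 10 were again in the top 10, which Csrp1 then led, and with total counts in place of TMM scaling 7 of 10 were.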

How the data were processed

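Paired-end RNA sequencing covered the proximal colon of 12 mice, 6 per genotype. The authors aligned the reads to GRCm38.p2 with STAR (2.3.0) and deposited, per mouse, unnormalized counts per Ensembl gene from featureCounts, with an exon length for each gene that is another deposited value. Strandedness and multimapping options are not given in the sources used here. Reads from overlapping or near-identical genes may therefore be split. Groups came from the genotype label.

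Counts were tested in R (4.3.3) with edgeR (4.0.16): TMM factors (0.906 to 1.10), genes reaching 10 counts in 3 or more mice, glmQLFit and glmQLFTest with genotype as the only term, and Benjamini-Hochberg adjustment over 20311 genes. Standard errors and 95% intervals were derived from each gene's F statistic and log2 fold change. CPM was TMM-scaled, and log2 values for likeness used a pseudocount of 0.5 CPM. Replicate numbers were given in accession order and pair no mice. Each mouse is 1 sample, so p-values measure the spread between mice. The script was tested on simulated data. Alternatives were median-of-ratios size factors, total counts, no filter, at least 1 CPM in at least 6 mice, DESeq2 (1.42.0), the likelihood ratio test, limma-voom (limma 3.58.1), the suffix of the mouse name (1, 2 or only a letter) as a covariate, each mouse left out, and no M10_2 and M13_1. Leaving out M17_1 as well was chosen after seeing the data.

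The members and lists were chosen with earlier results of these data known. Named were all members, in each list the 2 genes of highest mean RPKM and every gene with an unadjusted p under 0.05, and the 10 genes most like the members. A gene that this rule names is not reported here. Other genes named were chosen after their values were seen. The lists were thin and thick filament, attachment and cytoskeleton, contraction switch, calcium and membrane, and transcription factor genes, and markers of epithelium, neurons, glia, interstitial cells of Cajal, fibroblasts, mural cells, endothelium, mesothelium, adipocytes, striated muscle and distal colon.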

Additional observations from a re-analysis of the deposited data

Results flagged for a closer look

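Among the 20 groups of 6 values (10 genes in 2 genotypes), 1 value stood apart from the others of its group. Smtn in WT mouse M17_2 was at 198.2 CPM, against 148.6 CPM in the nearest WT mouse, and this gap took 0.64 of the range of the group, above the 95% critical value of Dixon's test for 6 samples. Chance flags about 1 in 20 such groups. The same mouse had the highest Lmod1, at 73.3 CPM.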

How the results depend on the processing

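Over the 22 alternatives, the number of the 10 genes called stayed at 0, with a lowest FDR of 0.228 (Des, DESeq2). The number of all genes called was 27 with DESeq2, 15 with the likelihood ratio test and 0 otherwise. The number of the 10 genes higher at an unadjusted p under 0.05 was 3 to 4 when 1 mouse was left out, with Tagln joining without M18_2b and Smtn without M17_2, and 1 (Actg2) without M10_2, M13_1 and M17_1. The number over all genes, in either direction, moved as well. It was between 524 of 20078 (without M10_2) and 1828 of 20248 (without M2_A) when 1 mouse was left out. Without M10_2, M13_1 and M17_1 it was 246 of 19795. The median log2 fold change of the 10 genes was 0.13 to 0.25 when 1 mouse was left out.

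Acta2, Actg2, Tagln, Cnn1, Des, Lmod1 and Smtn kept a log2 fold change above 0 under all 22 alternatives. The genes near 0 changed sign, and the cause was not tested. Myh11 was 0.019 with total counts and 0.074 without M10_2 and M13_1, and -0.094 (without M17_1) to 0.044 when 1 mouse was left out. Synpo2 was 0.022 with total counts, 0.0055 with limma-voom, 0.18 without M10_2 and M13_1 and 0.049 without M17_1 as well, and -0.14 (without M17_1) to 0.10 (without M10_2) when 1 mouse was left out. Mylk was -0.0056 with the name suffix as a covariate, and -0.085 (without M17_1) to 0.084 when 1 mouse was left out. No paired analysis was possible because the labels give no replicate number that the genotypes share. With 6 mice per genotype, and not depth, the spread between mice limits these comparisons.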
